A study of Rattus norvegicus with 15 samples.

Results

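Hearts taken 24 h after the induction of severe acute pancreatitis (SAP) were compared with hearts taken 12 h after it, across all genes with a symbol, using 10 of the 15 arrays of the series (5 at each time). Every animal was a male Sprague-Dawley (SD) rat, 8 to 10 weeks old, and 5% sodium taurocholate, a bile salt, had been infused backwards into the biliary and pancreatic ducts of the animals in both groups. The other 5 arrays came from rats after sham surgery, for which the labels give no hour of killing. They entered the estimate of the spread, and their levels are given beside the results as a description. The comparison asks which transcripts of the heart differ between the earlier and the later hour of the same illness, and it does not by itself compare ill with healthy animals. Some labels disagree: ischemia/reperfusion stands in the series title and in the note on RNA extraction, which also has mice and other hours, and the design text describes an array for mice. The sample titles, source names and probe set names give pancreatitis or sham surgery in rats and a rat array, and these were followed. The animals were kept in a lighting cycle of 12 h, and the clock time of infusion and of killing is not given in the labels used here. Time since infusion and time of day therefore cannot be told apart.

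In most tissues, heart included, a molecular clock runs in each cell. The proteins BMAL1 and CLOCK (or NPAS2, which can take the place of CLOCK) bind E-box motifs and switch on the genes of their own repressors, the period and cryptochrome proteins, REV-ERB and CIART, as well as output genes such as Dbp. The resulting rhythm puts the peak of Bmal1 RNA roughly opposite to that of Dbp. Severe pancreatitis is known for a systemic inflammation in which cytokines such as interleukin-6 induce acute-phase proteins in liver and other tissues, and macrophages in distant organs are activated. A load of unfolded proteins in the endoplasmic reticulum induces chaperones and folding enzymes of that compartment, a program called the unfolded protein response.

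The level of a gene is the deposited log2 value of its probe set, and a difference is the mean at 24 h minus the mean at 12 h, with limma's standard error (SE). A difference of 1 log2 unit is a fold of 2 if the values are plain log2. A gene was called where its adjusted p, taken over all 23188 probe sets in a limma fit of all 15 arrays, was under 0.05. Array medians lay between 5.90 and 5.98 log2. Ventricular myosin light chain Myl2 had a mean level of 17.62 at 12 h and 17.70 at 24 h, and cardiac troponin T (Tnnt2) 19.06 and 18.99, while 12 of 13 pancreatic acinar genes, 11 of 12 liver genes and 9 of 10 skeletal muscle genes had means under 6 log2 in both groups, a level treated here as near background. In 4 of the 15 arrays the atrial genes Myl4 and Sln both exceeded 12 log2: sham replicates 2 and 3 and 12 h replicates 3 and 4, and none at 24 h. The labels do not say which part of the heart was sampled, and these 4 are called the atrial-rich arrays. For many genes and some lists the results are also given without them. Where no such value is given, the result may still differ.

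Of 15037 named genes 128 were called (0.851%), and most of these were lower at 24 h: 107 fell (0.712%) and 21 rose (0.140%). At an unadjusted p under 0.05 there were 2125 named genes (14.1%), 880 higher and 1245 lower. The median difference over all named genes was 0.01 log2, and the 5th and 95th percentiles were -0.46 and 0.35. The difference reached a fold of 2 for 55 of the 128 called genes. Of all 128 called genes, 9 were near background in both groups. The 5 arrays at 24 h did not overlap the 5 at 12 h for 408 named genes (2.71%), of which 264 were lower and 144 higher at 24 h. Over all probe sets 160 were called (0.690%), 28 higher and 132 lower, and 32 of these probe sets carry no symbol here. Leaving out 12 h replicate 2 raised the 160 to 398, whereas the number was 90 without 12 h replicate 4, and 78, 73, 80 and 95 without 24 h replicates 1, 2, 4 and 5. Without the 4 atrial-rich arrays 11 named genes were higher (0.0732%) and 54 lower (0.359%). All 128 called genes kept their direction without these arrays, 45 kept the call, and 83 had a smaller difference. With the mean level of atrial genes as a covariate in the fit of all arrays, 8 named genes were higher (0.0532%) and 54 lower (0.359%). With the array quantiles equalized again the split of the called probe sets was 53 higher and 105 lower, so that 33.5% were higher against 17.5% before. Arrays at 12 h spread more than those at 24 h: the median standard deviation over probe sets was 0.245 at 12 h and 0.212 at 24 h, and 60.5% of probe sets had the larger value at 12 h.

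**Figure D1:**
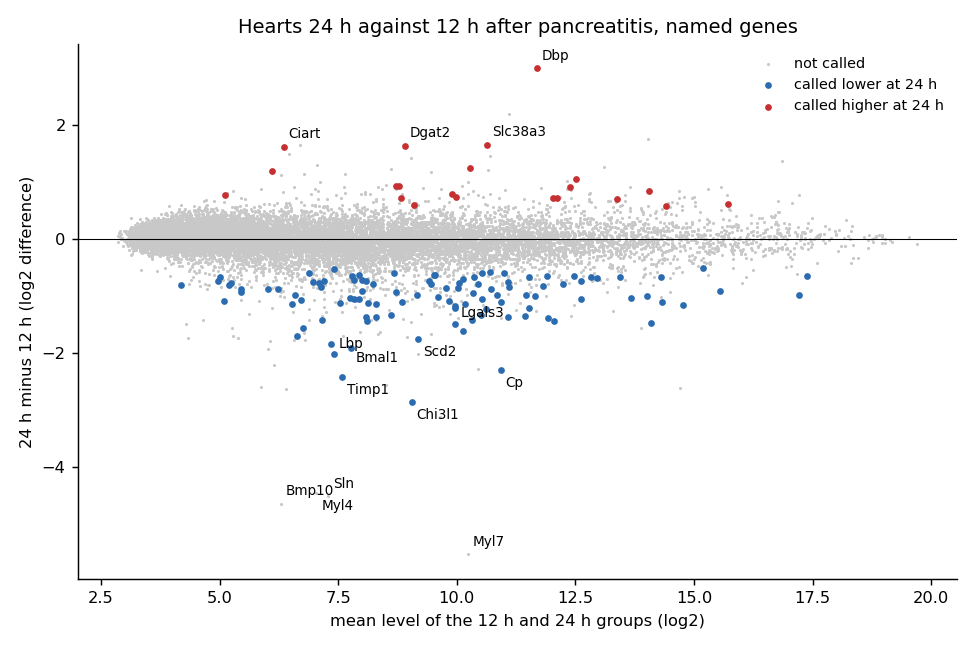
Difference between 24 h and 12 h (y axis, log2 difference) against the mean level of both groups (x axis, log2) for the 15037 named genes; each point is 1 gene, red where called higher (21), blue where called lower (107), grey where not called. Dbp lies highest at 2.99, and the atrial genes Myl7, Bmp10, Sln and Myl4, which were not called, lie lowest.

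The circadian clock gave the largest rise and a group of falls. The 3 measured activators of the clock fell between 12 h and 24 h: Bmal1 by 1.91, Clock by 1.22 and Npas2 by 1.04 on the log2 scale. The output factor Dbp rose 7.94-fold, and the repressor Ciart and the output gene Usp2 rose 3.05-fold and 2.36-fold. Of the clock lists, 3 of 3 activators, 1 of 9 repressors and 2 of 9 output genes were called, against 0.851% of all named genes. The median difference was -1.22 for the activators, 0.58 for the repressors and 0.57 for the output genes.

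The 300 bases around the start of transcription of Ciart, Bmal1 and Dbp, most of them upstream, are shown because these 3 genes moved most within their clock lists. They are RefSeq sequences of the rat assembly GRCr8, in lower case from 5′ to 3′, and capitals mark the motifs searched on both strands. These are the E-box CACGTG, the receptor half-site AGGTCA that is part of the element of REV-ERB and ROR, and TGCACAC. The last is a form of the core of the metal response element and is called the metal core here. Other forms of that core were not searched. The promoter of Ciart lies on the minus strand of chr2:186112197-186112496, that of Bmal1 on the plus strand of chr1:176766078-176766377, and that of Dbp on the plus strand of chr1:105312006-105312305.
Ciart: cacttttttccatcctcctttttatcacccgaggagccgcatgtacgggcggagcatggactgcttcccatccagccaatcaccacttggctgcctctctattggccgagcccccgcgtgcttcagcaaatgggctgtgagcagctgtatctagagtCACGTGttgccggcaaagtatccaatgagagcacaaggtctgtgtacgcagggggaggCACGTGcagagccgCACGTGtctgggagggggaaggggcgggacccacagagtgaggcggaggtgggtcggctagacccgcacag
Bmal1: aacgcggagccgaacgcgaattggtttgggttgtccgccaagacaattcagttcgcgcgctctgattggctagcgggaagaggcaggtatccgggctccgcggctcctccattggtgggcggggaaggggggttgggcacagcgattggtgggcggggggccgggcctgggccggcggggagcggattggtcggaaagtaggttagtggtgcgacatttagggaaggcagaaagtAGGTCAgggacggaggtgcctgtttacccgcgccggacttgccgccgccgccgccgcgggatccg
Dbp: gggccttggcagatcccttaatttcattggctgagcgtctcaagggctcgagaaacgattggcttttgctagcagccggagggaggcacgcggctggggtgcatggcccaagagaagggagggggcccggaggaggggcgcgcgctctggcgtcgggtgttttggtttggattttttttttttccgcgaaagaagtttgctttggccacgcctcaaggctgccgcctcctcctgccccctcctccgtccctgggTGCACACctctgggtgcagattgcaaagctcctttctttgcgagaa
Ciart holds 3 E-boxes, whose first bases lie at -93, -35 and -21 from the start. Bmal1 holds 1 half-site, at -15, and no E-box. The window of Dbp holds the metal core at 5 and neither of the other motifs. Among 33469 RefSeq promoters of this length, 6.42% hold the E-box, 16.2% the half-site and 4.34% the metal core. With 1 promoter for each gene on the array (12435 promoters), the shares are 7.94%, 13.3% and 4.13%. Of the 21 measured clock genes 18 had 1 or more promoter entries, of which 3 held the E-box (Bhlhe40, Ciart and Tef), 4 the half-site (Bmal1, Nr1d2, Por and Usp2) and 2 the metal core (Dbp and Nr1d1). These matches describe the letters of the window and were not tested against the differences in level.

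Bmal1, the activator that clock output depends on, stood at 9.28, 8.79, 8.46, 8.64 and 8.47 in 12 h replicates 1 to 5 and at 6.16, 7.36, 7.30, 6.52 and 6.75 in 24 h replicates 1 to 5. Every 24 h array was below every 12 h array, and the sham arrays ranged from 6.14 to 7.44. The difference was -1.91 ± 0.25 (SE), a 3.76-fold fall with adjusted p = 0.00171 by limma. Clock, its partner, had 12.10, 11.96, 12.12, 12.42 and 12.05 at 12 h and 10.18, 10.94, 11.23, 11.03 and 11.16 at 24 h, again without overlap, and 24 h replicate 1 was the lowest array. Its difference was -1.22 ± 0.19 with adjusted p = 0.00378, and the sham range was 10.46 to 11.25. Npas2 ranged from 7.63 to 9.03 at 12 h and from 6.98 to 7.67 at 24 h, so that the groups overlapped. It had an adjusted p of 0.0458, which was above 0.05 in 10 of the 15 fits that each left out 1 array (0.113 without 24 h replicate 1) and 0.164 without the atrial-rich arrays.

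Dbp, a transcription factor of the PAR bZIP family and a direct clock output, had levels of 9.20, 11.02, 11.32, 9.59 and 9.84 at 12 h and of 13.94, 12.33, 13.49, 13.18 and 12.98 at 24 h. The groups were apart by about 1 log2 unit at their nearest arrays, and 12 h replicates 2 and 3 were the highest of their group. The rise was 2.99 ± 0.36 with adjusted p = 0.000981 by limma, and it was 3.16 without the atrial-rich arrays (adjusted p = 0.00373). The 24 h mean of 13.18 ± 0.60 (SD, n = 5) lay beside a sham mean of 13.23 ± 0.40. Usp2, which encodes a ubiquitin-specific protease, had 9.20, 10.72, 9.54, 9.53 and 9.34 at 12 h and 11.10, 11.17, 10.78, 10.40 and 11.06 at 24 h. Here 12 h replicate 2 stood apart from its group and lay above 24 h replicate 4. The difference was 1.24 ± 0.26 (adjusted p = 0.0294), with 0.0903 without 24 h replicate 2 and 0.128 without the atrial-rich arrays. The other output genes were not called. Tef (a relative of Dbp) had a difference of 0.90, Noct (a phosphatase of NADPH) 0.99, Por (cytochrome P450 reductase) 0.57, Tspan4 0.54, Wee1 (a cell cycle kinase) 0.48 and Avpr1a (a vasopressin receptor) 0.20. Nfil3, a repressor that competes with DBP for its sites, had the only negative difference of the list, -0.55 (adjusted p = 0.196).

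Ciart, a repressor of the BMAL1 and CLOCK pair, stood at 4.88, 6.77, 5.87, 5.21 and 5.01 at 12 h and at 7.54, 6.70, 6.77, 7.21 and 7.57 at 24 h. Its 12 h replicate 2 reached the level of 24 h replicates 2 and 3, so the groups overlapped. The 12 h mean of 5.55 was near background. The rise was 1.61 ± 0.30 (adjusted p = 0.0149), with an adjusted p of 0.0529 without 24 h replicate 1 and 0.0848 without the atrial-rich arrays. None of the other 8 repressors was called, and all 8 had positive differences. The period genes Per1, Per2 and Per3 had differences of 0.76, 0.61 and 0.70 (adjusted p of 0.153, 0.172 and 0.201). The REV-ERB genes Nr1d1 and Nr1d2 had 0.28 ± 0.34 and 0.58 ± 0.27, the cryptochrome genes Cry1 and Cry2 0.06 and 0.57, and Bhlhe40 0.48. Nr1d1 spread widely at 12 h, from 8.75 to 11.27, and its 24 h arrays from 9.60 to 10.89 lay within that range. Averaged over the 9 repressors, the 12 h arrays ran from 7.96 to 8.89 and the 24 h arrays from 8.61 to 9.20. Averaged over the 3 activators they ran from 9.54 to 9.87 and from 7.78 to 8.73, with no overlap.

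**Figure D2:**
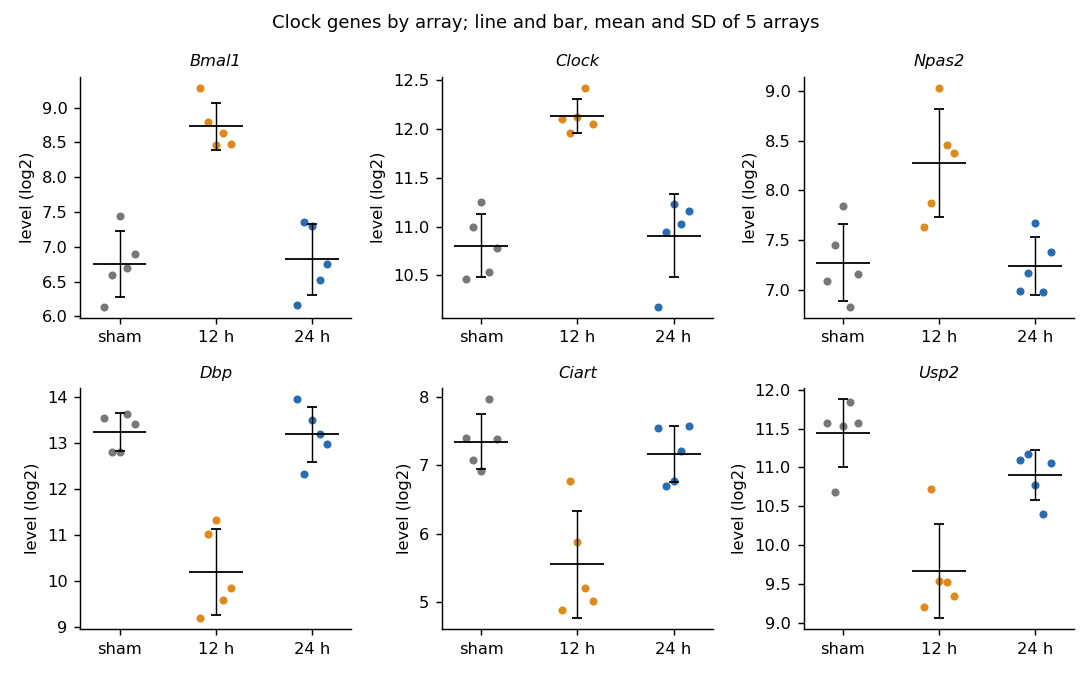
Level (y axis, log2) of 6 clock genes in each array of the sham, 12 h and 24 h groups (x axis); points are arrays, the line and bar are the mean and SD of 5 arrays, and each panel has its own y range. Bmal1 and Clock are lower in every 24 h array than in any 12 h array and Dbp is higher, while Npas2, Ciart and Usp2 overlap.

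Acute-phase and complement genes gave some of the largest falls. Timp1, an inhibitor of matrix metalloproteinases that cytokines induce, fell 5.37-fold, ceruloplasmin (Cp), a copper-carrying ferroxidase, 4.97-fold, and lipopolysaccharide-binding protein (Lbp) 4.07-fold. The receptor of oncostatin M (Osmr) fell by 0.65 on the log2 scale. Of the 20 measured genes of the list, 4 fell and none rose. The background of falls is 0.712% of all named genes. The median difference was -0.71, and 14 genes were lower at an unadjusted p under 0.05, as were 1245 of all 15037 named genes.

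Timp1 had 9.13, 8.42, 8.34, 9.15 and 8.90 at 12 h and 6.19, 5.11, 7.37, 6.40 and 6.74 at 24 h. The difference of -2.43 ± 0.35 had an adjusted p of 0.00203 by limma and was -2.45 without the atrial-rich arrays, and the sham arrays ranged from 6.29 to 7.87. Lbp, which presents bacterial lipopolysaccharide to CD14, stood at 8.04, 8.45, 9.41, 8.22 and 7.99 at 12 h and at 6.18, 5.98, 6.97, 5.86 and 6.99 at 24 h. In both genes all 24 h arrays were below all 12 h arrays. The difference for Lbp was -2.03 ± 0.28 (adjusted p = 0.00171), and its mean at 24 h was 6.40 beside 6.36 in sham hearts. Cp ranged from 10.56 to 13.85 at 12 h, and its highest arrays were the atrial-rich replicates 3 and 4, with 13.85 and 12.92. At 24 h it ranged from 9.21 to 10.45, below every 12 h array. Its difference of -2.31 ± 0.48 (adjusted p = 0.0294) was -1.45 without the atrial-rich arrays (adjusted p = 0.0595), and 0.0914 was the adjusted p without 24 h replicate 2. Osmr overlapped between the groups and had an adjusted p of 0.0481. This was above 0.05 in 12 of the 15 fits without 1 array (0.12 without 24 h replicate 1), and 0.0246 without the atrial-rich arrays.

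Several other genes of the list had negative differences that were not called. Serpina3n, an inhibitor of serine proteases, had a difference of -3.12 ± 1.20 (adjusted p = 0.254). Lipocalin 2 (Lcn2), which binds bacterial siderophores, had -2.28 ± 0.55 (adjusted p = 0.0641), the fibrinogen gene Fgg -1.70 ± 0.50 and orosomucoid (Orm1) -1.63 ± 0.57. Stat3, the transcription factor downstream of interleukin-6, had -0.93 ± 0.22 (adjusted p = 0.062) and its receptor subunit Il6st -0.46. In all, 6 genes of the list, among them C3, A2m and Hp, were near background at both times. Among cytokines and NF-kB targets none of 18 was called, beside calls in 0.851% of all named genes, and the median difference was -0.10. In that list 10 genes were near background at both times, Il6, Il1b, Tnf and Cxcl1 among them.

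Several genes of macrophages and monocytes fell. Cd14, the co-receptor for lipopolysaccharide, fell by 1.56, the complement subunits C1qb and C1qc by 1.21 and 0.80, and the lysosomal protein Cd68 by 0.74 on the log2 scale. All 14 measured genes of the list had negative differences with a median of -0.52, and 4 of them were called, beside falls in 0.712% of all named genes. Averaged over the list, 12 h arrays ran from 9.01 to 9.98 and 24 h arrays from 8.58 to 9.03, with sham arrays from 8.59 to 8.84. Because whole tissue was measured, fewer cells of a type and less RNA per cell cannot be told apart.

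Cd14 stood at 7.14, 7.41, 8.12, 7.63 and 7.38 at 12 h and at 6.14, 5.53, 6.53, 5.70 and 5.98 at 24 h. No array of either group reached the other, and the difference of -1.56 ± 0.23 had an adjusted p of 0.00306 by limma. The 24 h mean of Cd14, 5.98, was near background. C1qb ranged from 9.99 to 11.26 at 12 h and from 9.09 to 9.71 at 24 h (-1.21 ± 0.19, adjusted p = 0.00378). C1qc, whose groups did not overlap either, had an adjusted p of 0.0165, and Cd68, whose groups overlapped, had 0.0408. Cd68 was above 0.05 in 11 of the 15 fits lacking 1 array (0.101 without 12 h replicate 4). Without the atrial-rich arrays Cd14 and C1qb remained called, C1qc had an adjusted p of 0.0507 and Cd68 of 0.282, and 12 of the 14 differences were negative with a median of -0.35.

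Further macrophage receptors outside this list were among the largest falls of all genes. Msr1, a scavenger receptor for modified lipoproteins, had 7.79, 7.30, 8.56, 8.23 and 7.48 at 12 h and 6.25, 6.51, 6.82, 6.30 and 6.37 at 24 h. Its difference was -1.42 ± 0.20 (adjusted p = 0.00171), and the 24 h values lay above the sham range of 5.74 to 6.19. Fcgr2al1, by its name related to a receptor for immunoglobulin G, was highest in the atrial-rich 12 h replicates 3 and 4, at 12.33 and 11.26, and fell by 1.42, or by 0.92 without the atrial-rich arrays (adjusted p of 0.0236 and 0.0211). Cd163 and Mrc1, receptors typical of resident macrophages, had differences of -0.97 and -0.80 and were not called (adjusted p of 0.141 and 0.183). The smallest differences of the list were those of Csf1r, the receptor of a macrophage growth factor (-0.31), the chemokine receptor Ccr2 (-0.14) and lysozyme (Lyz2, -0.01). No neutrophil gene of 13 was called, beside calls in 0.851% of all named genes, and 7 of the 13 were near background at both times. S100a8 and S100a9, which neutrophils hold in abundance, had differences of -1.35 ± 0.47 and -1.28 ± 0.56. Averaged over that list, the arrays ran from 6.12 to 6.55 at 12 h and from 5.65 to 6.55 at 24 h.

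Galectin-3 (Lgals3), a sugar-binding protein of macrophages and injured tissue, had the smallest adjusted p of all named genes. It stood at 10.99, 10.64, 10.46, 10.88 and 10.62 at 12 h and at 9.35, 9.12, 9.46, 9.25 and 8.92 at 24 h. The 2 groups were a full log2 unit apart at their nearest arrays, and the 24 h arrays overlapped the sham range of 9.21 to 9.64. The fall was 1.50 ± 0.13, or 2.82-fold (adjusted p = 3.65e-05 by limma), and it was 1.53 without the atrial-rich arrays. Mmp14, a membrane-bound metalloproteinase that activates Mmp2, had 7.96, 7.90, 7.75, 7.23 and 6.57 at 12 h and 5.45, 5.72, 6.04, 5.72 and 5.92 at 24 h. It fell by 1.71 ± 0.23 (adjusted p = 0.00171) to a 24 h mean of 5.77, near background. Mmp2 itself had a difference of -0.72 ± 0.32 that was not called. Timp1 and Mmp14 were the 2 called genes among 16 matrix proteases and their inhibitors, beside falls in 0.712% of all named genes. The median of that list was -0.08. Of the 16 genes of cardiac stress and injury Lgals3 alone was called.

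**Figure D3:**
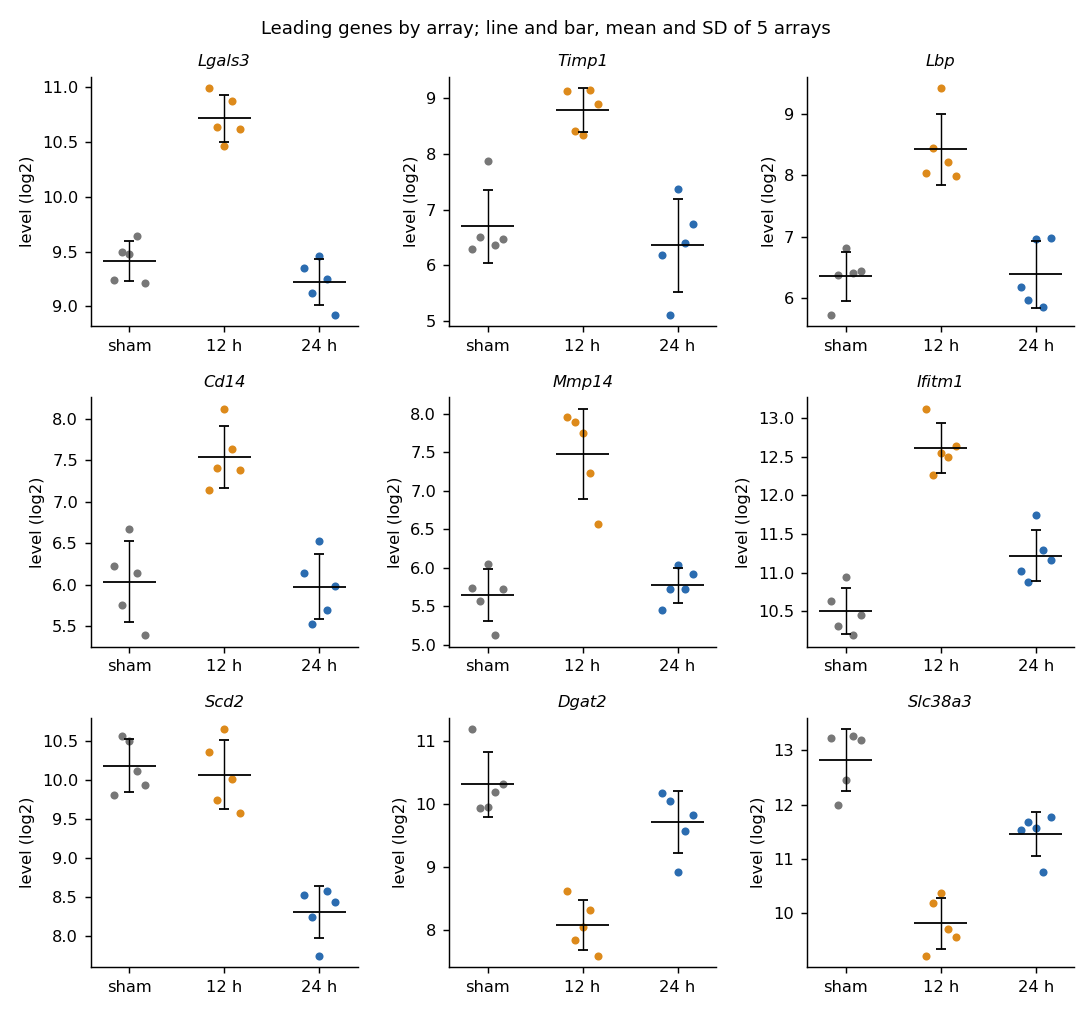
Level (y axis, log2) of 9 leading genes in each array of the sham, 12 h and 24 h groups (x axis); points are arrays, the line and bar are the mean and SD of 5 arrays, and each panel has its own y range. In all 9 panels the 12 h and 24 h arrays do not overlap; Dgat2 and Slc38a3 are higher at 24 h and the other 7 genes lower.

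Some chaperones of the endoplasmic reticulum fell. Dnajc3, which inhibits the kinase PERK, fell by 1.11, the disulfide isomerase Pdia4 by 1.36 and the chaperone Hsp90b1 (GRP94) by 1.11 on the log2 scale. They were 3 of 19 measured genes of the unfolded protein response (falls in all named genes, 0.712%), none of which rose. The median difference was -0.57, and 14 genes were lower and 1 higher at an unadjusted p under 0.05. Over all 15037 named genes 1245 were lower and 880 higher at that threshold. Dnajc3 had 9.21, 9.20, 9.79, 9.82 and 8.91 at 12 h and 8.05, 8.21, 8.48, 8.28 and 8.36 at 24 h, with adjusted p = 0.00266. Its groups did not overlap, and the sham range was 8.18 to 8.53. Pdia4 stood at 11.57, 11.32, 12.44, 13.13 and 12.10 at 12 h and at 10.95, 10.09, 11.45, 10.75 and 10.50 at 24 h. Its highest arrays were the atrial-rich 12 h replicates 3 and 4, and its 24 h replicate 3 lay above 12 h replicate 2. Pdia4 and Hsp90b1 had adjusted p of 0.0307 and 0.036, which were above 0.05 in 7 and 9 of the 15 fits without 1 array. They were 0.2 and 0.255 without the atrial-rich arrays, while Dnajc3 had 0.0199 there. The median of the list in that fit was -0.43.

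Most of the remaining members of the unfolded protein response had negative differences and missed the threshold. The central chaperone Hspa5 (BiP) had -0.77 ± 0.22 (adjusted p = 0.109), Creld2 -0.88, Hyou1 -0.78, Pdia6 -0.78, Pdia3 -0.69 and calreticulin (Calr) -0.63. Xbp1, whose spliced product drives the program, had -0.57 ± 0.14 (adjusted p = 0.0712). Ddit3 (CHOP), a factor of the death-promoting branch, had 0.04, and Herpud1, which acts in degradation of misfolded proteins, had 0.87 ± 0.30 (adjusted p = 0.19). Of the cytosolic heat shock chaperones Hsph1 fell by 0.73 (adjusted p = 0.0149) and Dnajb4, a co-chaperone, rose by 0.72 (adjusted p = 0.0485). They were the called genes out of 17 measured with a median of -0.02, beside calls in 0.851% of all named genes. Dnajb4 was above 0.05 in 13 of the 15 fits without 1 array (0.112 without 24 h replicate 4). Neither Hsph1 nor Dnajb4 was called without the atrial-rich arrays (adjusted p of 0.0566 and 0.0918). Their differences in that fit were larger, -0.80 and 0.83.

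In the interferon list the called genes fell, while most of the others had positive differences. Ifitm1, an antiviral membrane protein, had 13.12, 12.26, 12.55, 12.49 and 12.64 at 12 h and 11.02, 10.88, 11.74, 11.29 and 11.17 at 24 h. It fell by 1.39 ± 0.18 (adjusted p = 0.00171) without overlap of the groups, and its 24 h mean of 11.22 lay above the sham mean of 10.51. Ifitm3 fell by 0.91 (adjusted p = 0.0297, and 0.175 without the atrial-rich arrays). These were the 2 called genes of 21, beside falls in 0.712% of all named genes. Of the list, 16 genes had positive differences and the median was 0.29, with 1.48 ± 0.39 for Ifit1 (adjusted p = 0.0902), 1.16 for Mx2 and 0.88 for Usp18, none of them called. The median was 0.07 without the atrial-rich arrays. Averaged over the list, 12 h arrays ran from 7.87 to 8.39, 24 h arrays from 8.00 to 9.07 and sham arrays from 8.12 to 9.56. Only 24 h replicates 3 and 4, at 8.60 and 9.07, lay above the 12 h range. No gene of MHC class II presentation was called, out of 9 with a median of 0.34, beside calls in 0.851% of all named genes.

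Scd2 and Dgat2, enzymes of lipid synthesis, and the transporter Slc38a3 were among the largest changes of single genes. Scd2, a stearoyl-CoA desaturase that makes monounsaturated fatty acids, had 10.36, 9.74, 10.65, 10.01 and 9.57 at 12 h and 8.53, 8.25, 7.75, 8.57 and 8.43 at 24 h. Its fall of 1.76 ± 0.21, or 3.39-fold, had an adjusted p of 0.000981 by limma. The 24 h arrays also lay below the sham range of 9.80 to 10.56, whereas the 12 h arrays lay across it. Dgat2, which catalyses the last step of triglyceride synthesis, stood at 8.62, 7.84, 8.06, 8.32 and 7.60 at 12 h and at 10.18, 10.05, 8.93, 9.58 and 9.83 at 24 h. Its rise of 1.63 ± 0.26 was 3.09-fold (adjusted p = 0.00499), and the groups did not overlap. Slc38a3, a transporter of glutamine and other neutral amino acids, had 9.22, 10.19, 10.38, 9.71 and 9.56 at 12 h and 11.54, 11.67, 11.56, 10.75 and 11.78 at 24 h. It rose by 1.65 ± 0.27 (adjusted p = 0.00537). Every 24 h array was above the 12 h arrays and below the sham range of 11.99 to 13.26. It was the only called gene of 16 in glutamine and amino acid transport (0.851% of all named genes were called), where 11 genes had negative differences and the median was -0.17. All 3 genes kept their call in every fit without 1 array and without the atrial-rich arrays.

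Other metabolic genes moved less. Ucp2, an uncoupling protein of the mitochondrial inner membrane, fell by 1.17 ± 0.25 (adjusted p = 0.0347, and 0.115 without the atrial-rich arrays). Its adjusted p was above 0.05 in 8 of the 15 fits without 1 array. Dgat2 and Ucp2 were the only called genes among 19 of lipid handling and PPAR targets, beside calls in 0.851% of all named genes. Without the atrial-rich arrays the called genes were Dgat2 and the fatty acid transporter Slc27a1 (difference 1.03, adjusted p = 0.0325). Pfkfb3, which makes the activator of phosphofructokinase, rose by 1.18 ± 0.27 from a 12 h mean of 5.52, near background, to 6.70 at 24 h. Its adjusted p of 0.0485 was above 0.05 in 12 of the 15 fits without 1 array (0.132 without 24 h replicate 2) and 0.15 without the atrial-rich arrays, and it was the only called gene of 24 in glycolysis and glucose uptake. All 20 genes of fatty acid oxidation had positive differences, from 0.02 to 0.65 with a median of 0.21, and none was called. The carnitine-acylcarnitine carrier Slc25a20 had the largest, 0.65 ± 0.17 (adjusted p = 0.0964). None of 28 genes of oxidative phosphorylation (median 0.13) and none of 19 of the TCA cycle (median 0.16) was called. All 25 cytosolic ribosomal protein genes had negative differences, with a median of -0.18, and Rpl3 alone was called, with a fall of 1.04 ± 0.22 (adjusted p = 0.0357, and 0.116 without the atrial-rich arrays). The signs of these 2 lists were the same after centring each array on its median and after a repeated quantile normalization, and in the fit without the atrial-rich arrays 19 of 20 and 24 of 25 kept them.

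The gap junction gene Gja1 and 2 genes of autonomic signalling, Grk5 and Chrm2, fell. None of 16 sarcomere genes was called, with a median of 0.03, beside calls in 0.851% of all named genes. Gja1 encodes the main gap junction protein of ventricular muscle. It had 18.09, 17.60, 17.35, 17.71 and 17.82 at 12 h and 16.77, 16.41, 17.47, 16.71 and 16.29 at 24 h, where only 24 h replicate 3 reached the 12 h range. The fall was 0.98 ± 0.18 (adjusted p = 0.0148 by limma), and the sham range was 16.29 to 16.47. Without 24 h replicate 2 its adjusted p was 0.0548, and without the atrial-rich arrays 0.0472. It was the only called gene of 18 ion channels and gap junctions, whose median was -0.06. None of 7 genes of the conduction system was called, and 5 of these were near background in both groups. Grk5, a kinase that desensitizes adrenergic receptors, had 10.69, 10.33, 10.05, 10.68 and 10.22 at 12 h and 8.75, 9.44, 9.60, 9.31 and 9.42 at 24 h. It fell by 1.09 ± 0.16 without overlap (adjusted p = 0.00306) and kept its call in every fit without 1 array. Chrm2, the muscarinic receptor through which the vagus slows the heart, fell by 0.67 (adjusted p = 0.0306, and 0.213 without the atrial-rich arrays). These were 2 of 17 genes of adrenergic and muscarinic signalling, beside falls in 0.712% of all named genes, and 1 of the 17 was called without the atrial-rich arrays. The median of that list was -0.09.

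The remaining genes with the largest changes belong to several processes. Slc43a3, known in human cells as a transporter of purine bases, had 14.99, 14.53, 15.74, 14.43 and 14.49 at 12 h and 13.17, 13.27, 13.19, 13.47 and 13.71 at 24 h. It fell by 1.47 ± 0.20 (adjusted p = 0.00171), with no overlap. Qsox1, a secreted enzyme that forms disulfide bonds, fell by 1.85 ± 0.34 (adjusted p = 0.0149, and 0.113 without the atrial-rich arrays). Its 12 h arrays spread from 6.87 to 9.09. Gda, guanine deaminase, fell by 1.45 and was not called without those arrays (adjusted p = 0.0671). Rab30, a small GTPase of the Golgi, fell by 1.44 and by 1.69 without them (adjusted p of 0.0149 and 0.0227). Single called genes of other lists were P4ha1 (a collagen prolyl hydroxylase, -0.84), Mgst1 (a microsomal glutathione transferase, -1.05) and Tcf21 (a transcription factor of fibroblasts, -0.96). These 3 were not called without the atrial-rich arrays, with adjusted p of 0.117, 0.181 and 0.181.

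Apart from Fdft1, which rose 2.06-fold and is given in the closing section, the other called rises were smaller than 2-fold. Nudt12, a peroxisomal enzyme that cleaves NADH, rose by 0.92 ± 0.15 (adjusted p = 0.00796), from between 7.85 and 8.77 at 12 h to between 8.88 and 9.43 at 24 h. Galectin-9 (Lgals9) rose by 0.90, where its relative Lgals3 fell. The adjusted p of Lgals9, 0.0357, was above 0.05 in 8 of the 15 fits without 1 array. Nicn1, a protein of tubulin complexes, rose by 0.84 ± 0.15 (adjusted p = 0.0126), and its lowest 24 h array, 14.07, stood above the sham range of 13.58 to 13.76. Mreg, Abhd18, Uckl1, Car14 (a membrane carbonic anhydrase), Ehd4 (a protein of endosomal recycling), Fam76a and Wdr45 (a protein of autophagosome formation) rose by between 0.57 and 0.78 without overlap of the groups. None of these 10 genes was called without the atrial-rich arrays. In that fit Mreg, Abhd18 and Uckl1 had larger differences (0.83, 0.79 and 0.81), and the rest had smaller ones. Sspn, a protein of the dystrophin complex chosen after its values were seen, rose by 0.69 with overlap of the groups (adjusted p = 0.0458), and by 0.83 without those arrays (adjusted p = 0.0242). The adjusted p of Wdr45, 0.0408, was above 0.05 in 12 of the 15 fits without 1 array (0.108 without 24 h replicate 2), and that of Mreg likewise in 12 (0.1 without 12 h replicate 4).

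**Figure D4:**
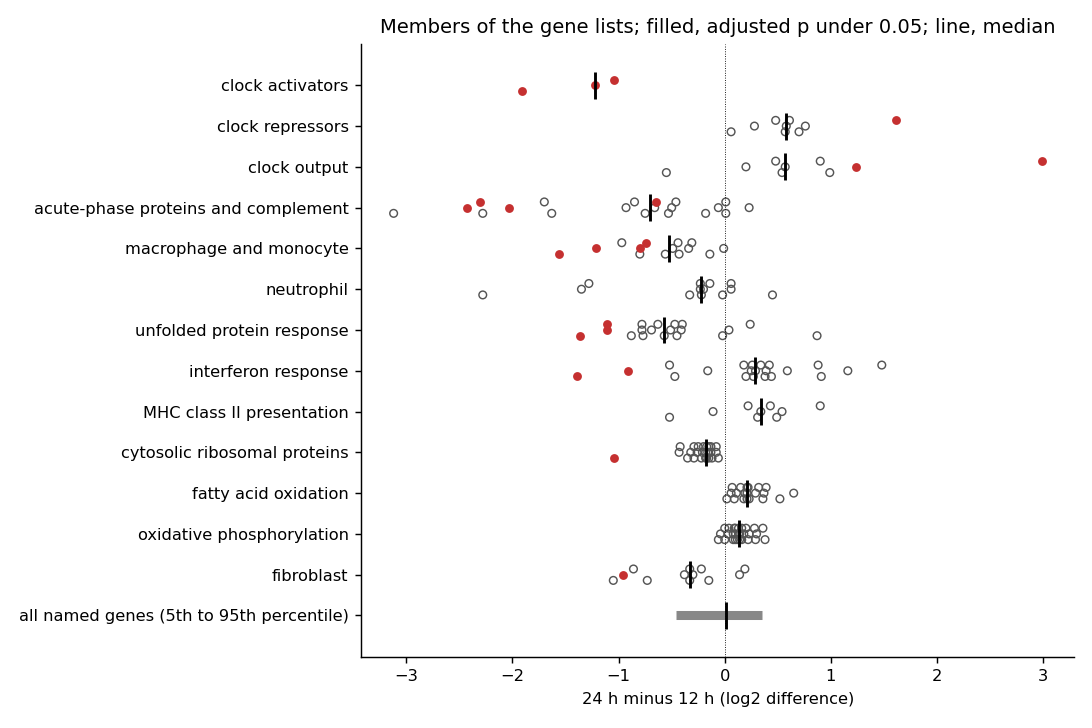
Difference between 24 h and 12 h (x axis, log2 difference) of each measured member of 13 gene lists (rows); points are genes, red where called, the upright line is the median of the list, and the grey bar runs from the 5th to the 95th percentile of all named genes (-0.46 to 0.35). The activators of the clock lie left of zero and its repressors right of it, and the acute-phase, macrophage and unfolded protein lists lie mostly left.

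Several lists held no called gene. Over all named genes 0.851% were called, so a short list without a call is not unusual. None was called among 19 immediate early genes, where Egr1 had -1.32 ± 0.36 (adjusted p = 0.103) and the differences ran from -1.32 to 1.65. The same held for 16 glucocorticoid-induced genes, where Sgk1 had -1.32 ± 0.33 (adjusted p = 0.0726) and the differences ran from -1.56 to 0.76. Nor was any called among 10 metallothioneins and zinc transporters, where Mt2A had -1.56 ± 0.44 (adjusted p = 0.113) and the differences ran from -1.56 to 0.61. T and NK cell (14 genes), B cell (7), mast cell (9), endothelial (11) and cell cycle (18) lists were likewise without a call. Near background in both groups were 8, 6, 6, 0 and 15 of their genes, in that order, which limits what a missing call can show.

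The lists of atrial and fibroblast genes depended on the 4 atrial-rich arrays. The 10 atrial genes had a median difference of -2.14, with -5.54 ± 2.00 for the atrial light chain Myl7 (adjusted p = 0.217), and none was called. Myl7 ranged from 6.69 to 19.24 at 12 h and from 5.75 to 11.30 at 24 h. Without the 4 arrays the median of the list was -0.15. Over the 12 fibroblast genes the median was -0.33 with all arrays and 0.21 without the 4, and over the 19 collagen and matrix genes it was -0.15 and 0.15, so that both lists turned their sign. Some lists with smaller medians turned too, such as sarcomere genes (0.03 and -0.02) and ion channels and gap junctions (-0.06 and 0.01). The part of atrial tissue in the other falls was not tested beyond the values given with and without these arrays.

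**Figure D5:**
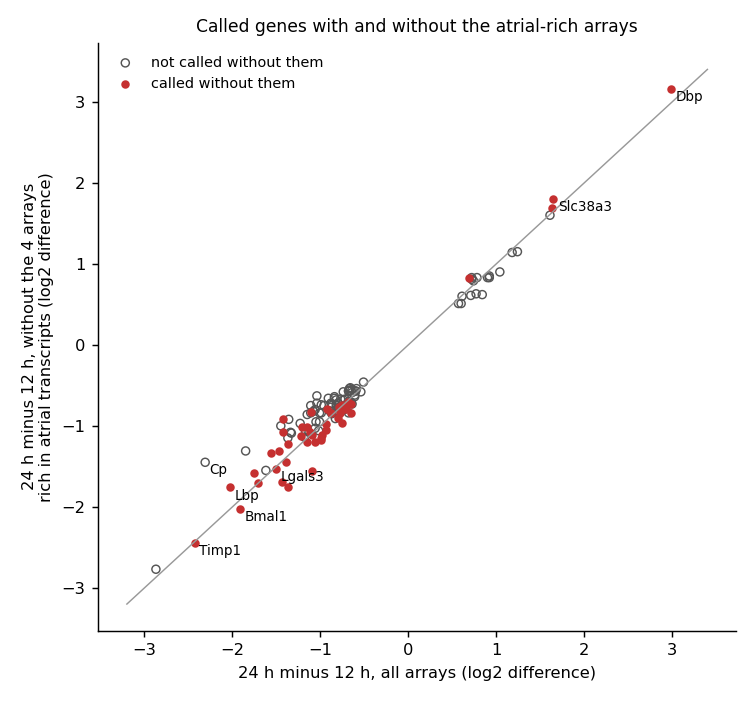
Difference between 24 h and 12 h of the 128 called genes with all arrays (x axis, log2 difference) and without the 4 atrial-rich arrays (y axis, log2 difference); each point is 1 gene, filled red where it was also called without them (45 genes), and the grey line marks equal values. No gene crosses zero, and Cp lies farthest above the line among the labelled falls.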

How the data were processed

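RNA from rat hearts was measured on Affymetrix transcript-cluster arrays, 5 per group (sham, SAP 12 h, SAP 24 h), and groups were taken from the sample titles. The deposited log2 values were made by the authors with Affymetrix Expression Console, per the submitters' processing notes (its version is not stated there). The deposited file name gives the method as RMA (background correction, quantile normalization, median polish), the only ground for taking the scale as log2. The values run from 2.51 to 19.83, and a second deposited table holds the same values (largest difference 0). Background, labelling and RNA quality of single arrays were not analysed here, and precision is limited by the number of arrays, with a median SE of 0.15 for a difference. Through GEO's platform annotation 15049 of 23188 probe sets had 1 symbol and 8139 are unnamed here. For the 10 of 15037 symbols with several probe sets, the one with the highest mean was used.

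The contrast 24 h minus 12 h was taken from a limma 3.58.1 fit (lmFit, eBayes, R 4.3.3) of 3 group means on the 15 arrays, with no covariate, filter or minimum fold. Benjamini-Hochberg adjustment ran over all 23188 probe sets. The fit was tested on simulated data. The 56 gene lists hold 885 entries, of which 807 were measured. They are described by counts and medians beside the same values over all named genes. The groups compared, the gene lists and the rule for named genes were chosen with earlier results of these data known. Named are up to 15 of the largest rises and the 15 largest falls under 1 rule. It took called genes without overlap and with a mean of at least 6 log2 in 1 of the groups. Fewer than 15 rises passed, and Ciart, whose groups overlapped, was added as the next by p. Also named are called members of the lists (up to 5 per list with 2 or more) and all measured clock genes. Other genes are given as list members, and those in the closing section were chosen after their values were seen. Replicate numbers were checked for pairing: the deviations of same-numbered 12 h and 24 h arrays correlated between -0.0555 and 0.0261, and 0 of 5 pairs were over 0.1, so the numbers only name arrays. Alternatives were other normalizations, filters, variance models, thresholds, sets of arrays, an atrial covariate, and leaving out each array in turn. Promoter sequences are from RefSeq (GRCr8).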

Additional observations from a re-analysis of the deposited data

Results flagged for a closer look

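For each of the 66 named genes the arrays of each group of 5 were examined for a value far from the rest (132 groups in all), by a test that chance alone trips in about 5% of groups; 8 groups held such a value, 4 at 12 h and 4 at 24 h.

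At 12 h, replicate 2 stood above its group for Usp2, at 10.72 with the next array at 9.54. Replicate 3, which is rich in atrial transcripts, stood above for P4ha1, at 12.11 against 11.47. Replicate 4, also rich in them, stood below for Fam76a, at 8.49 against 8.81, and replicate 5 stood below for Mgst1, at 12.73 against 13.21. At 24 h, replicate 1 stood below its group for Clock, at 10.18 with the next array at 10.94. Replicate 3 stood below for Wee1, at 8.55 against 9.42, and above for Fcgr2al1, at 10.07 against 9.57. Replicate 4 stood below for Slc38a3, at 10.75 against 11.54. Of these genes, Clock and Slc38a3 kept their call in each fit that left out 1 array, and Wee1 was not called.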

How the results depend on the processing

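Of the 51 called named genes 17 kept the call in every alternative fit, 20 kept it in all 15 fits that left out 1 array, and 0 changed direction. The 160 probe sets called (28 higher, 132 lower) kept within 1.5 times under median centring, a repeated quantile normalization (apart from 53 higher), the low-level filters, trend and robust settings and array weights, apart from higher calls of 45 without the lowest 50% of probe sets, 46 without those under 6 log2 in both groups and 47 with array weights. Fitting only the 10 arrays compared left 75 probe sets (13 higher, 62 lower), 23 of the 51 genes and 5 of the 10 lists with at least 2 called members. An adjusted p under 0.01 left 40 (4 and 36), 18 genes and 4 lists, and a fold of at least 2 left 72 (11 and 61) and 31 genes. With the atrial covariate there were 83 (13 and 70), 22 genes and 5 lists, and without the 4 atrial-rich arrays 85 (13 and 72) and 21 genes. Both fits also have fewer arrays or degrees of freedom. Leaving out 1 array gave between 73 and 398 probe sets, 9 to 130 higher and 64 to 268 lower, 24 to 50 genes and 4 to 15 lists. The highest counts came without 12 h replicate 2 and the lowest probe set counts without 24 h replicate 2, and the cause was not tested. With the replicate number as a block, 162 probe sets were called (22 higher, 140 lower; 130 shared), with 43 genes and 9 lists, and 0 of 5 arrays at 24 h correlated best with their own number. The smallest called difference of a named gene was that of Ppia, -0.51, and 6904 of 15037 named genes lay under 6 log2 in both groups, where low signal limits what a difference can show.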

Other observations

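The genes in this section were chosen after their values were seen. The largest called fall of all named genes was that of Chi3l1, a chitinase-like glycoprotein of macrophages and injured tissue. It stood at 9.68, 10.40, 10.38, 10.88 and 11.08 at 12 h and at 8.00, 6.44, 9.69, 6.53 and 7.43 at 24 h. Only 24 h replicate 3 reached the 12 h range, and the sham arrays ran from 5.94 to 6.91. The difference was -2.87 ± 0.46 (adjusted p = 0.00499 by limma), and -2.77 with an adjusted p of 0.0572 without the atrial-rich arrays. Trem1, which amplifies inflammatory signals of myeloid cells, fell by 0.99 (adjusted p = 0.0357, and 0.0363 without those arrays). Fcgr2b, the inhibitory receptor for immunoglobulin G, fell by 1.15 (adjusted p of 0.0334 and 0.0438) to a 24 h mean of 5.96, near background. Jak2, a kinase downstream of cytokine receptors, was even within its groups, from 11.41 to 11.53 at 12 h and from 10.52 to 10.90 at 24 h, and fell by 0.76 ± 0.11 (adjusted p = 0.00306).

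The splicing factor gene Srsf2 fell by 0.80 on the log2 scale without overlap of the groups (adjusted p = 0.0126, and 0.021 without the atrial-rich arrays). Fdft1, the first enzyme committed to sterol synthesis, rose by 1.04 ± 0.22 (adjusted p = 0.0309, and 0.181 without those arrays). Acss2, which makes acetyl-CoA from acetate, fell by 0.83 ± 0.15 (adjusted p = 0.0119), and by 0.91 without those arrays (adjusted p = 0.0534). The phospholipase gene Pla1a fell by 1.15 ± 0.15 (adjusted p = 0.00171 and 0.0131). Pla1a had a mean of 7.73 at 24 h, beside 8.88 at 12 h and 8.49 in sham hearts.

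Globin genes of red cells were not called. Hba-a1, Hbb-b1 and Hbb had positive differences of 0.77, 0.77 and 0.88 (adjusted p of 0.482, 0.448 and 0.386).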
